A study of Mus musculus with 8 samples.

Results

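Sorted epithelial cells and whole tissue of the telencephalic choroid plexus, the choroid plexus of the lateral ventricles, were compared in mouse embryos at E18.5. The sorted group held 2 libraries of epithelial cells purified by fluorescence-activated cell sorting as Ttr::RFP+, with the strain given as ICR (CD1). The whole group held 2 libraries of entire choroid plexus, with the strain given as CD1. Membership was read from the sample labels. The comparison used 4 of the 8 libraries of the series and all 15698 of 23284 genes that passed a count filter. The other libraries came from the hindbrain choroid plexus in the same preparations, also with 2 libraries a group. The design text of the series states that each brain gave tissue of both regions.

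The sort selected cells by a red fluorescent reporter tied to Ttr, the transthyretin gene, so the level of Ttr is not an independent check of the sort. The labels do not say how the reporter is carried, whether embryos were pooled or how the tissue was dissociated, and those of whole tissue name no reporter. Preparation, reporter and collection therefore cannot be told apart. The design text calls the libraries biological replicates, and p-values below measure the spread between them.

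The choroid plexus is a sheet of ciliated, secretory epithelium over a stroma with leaky capillaries, pericytes, fibroblasts and macrophages, and it makes most of the cerebrospinal fluid. Taking a tissue apart into single cells is known to switch on immediate early genes, such as those of the AP-1 and EGR transcription factors, which need no new protein to be transcribed. NF-kB target genes such as chemokines can follow.

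Total counts were 15583831 and 8849053 for whole replicates 1 and 2, and 31613434 and 18562464 for sorted replicates 1 and 2. Replicates ranked genes alike, with Spearman correlations across genes of 0.993 in whole tissue and 0.991 in sorted cells. Levels below are CPM, edgeR's rate of a gene's count over the library total after TMM scaling, for replicates 1 and 2 in that order. CPM are not per length and are compared between libraries only, not between genes. Differences are log2 values of sorted minus whole ± their standard error. The quasi-likelihood F test of edgeR gave each p, adjusted by Benjamini and Hochberg's method over all tested genes, and a gene is called where it is below 0.05. An exact permutation test of 2 libraries against 2 cannot go below 0.333 and was not used.

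Between sorted and whole telencephalic choroid plexus 3517 genes were called, or 22.4% of those tested. Of these 1551 were higher in sorted cells (9.88%) and 1966 lower (12.5%). Decreases were larger than increases: 555 genes called lower and 127 called higher changed by more than 4-fold, and 281 and 73 by more than 8-fold. The libraries of the 2 groups did not overlap in 10409 genes (66.3%), among them every gene called higher or lower, so that non-overlap adds nothing to a call. Scaling by library totals in place of TMM factors moved the median of all genes from 0.01 to -0.30, and only 10.5% of the then 4630 called genes were higher in sorted cells, against 44.1% with TMM. Small increases therefore depend on the scaling. List medians are read against the all-gene median, which is 0.01 with TMM factors and -0.30 with library totals. Calls numbered 1519 without whole replicate 1, 1652 without whole replicate 2, 1747 without sorted replicate 1 and 2181 without sorted replicate 2. Member counts "in turn" below leave out these libraries in this order, and a p in brackets after a left-out library is the adjusted p without it.

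**Figure D1:**
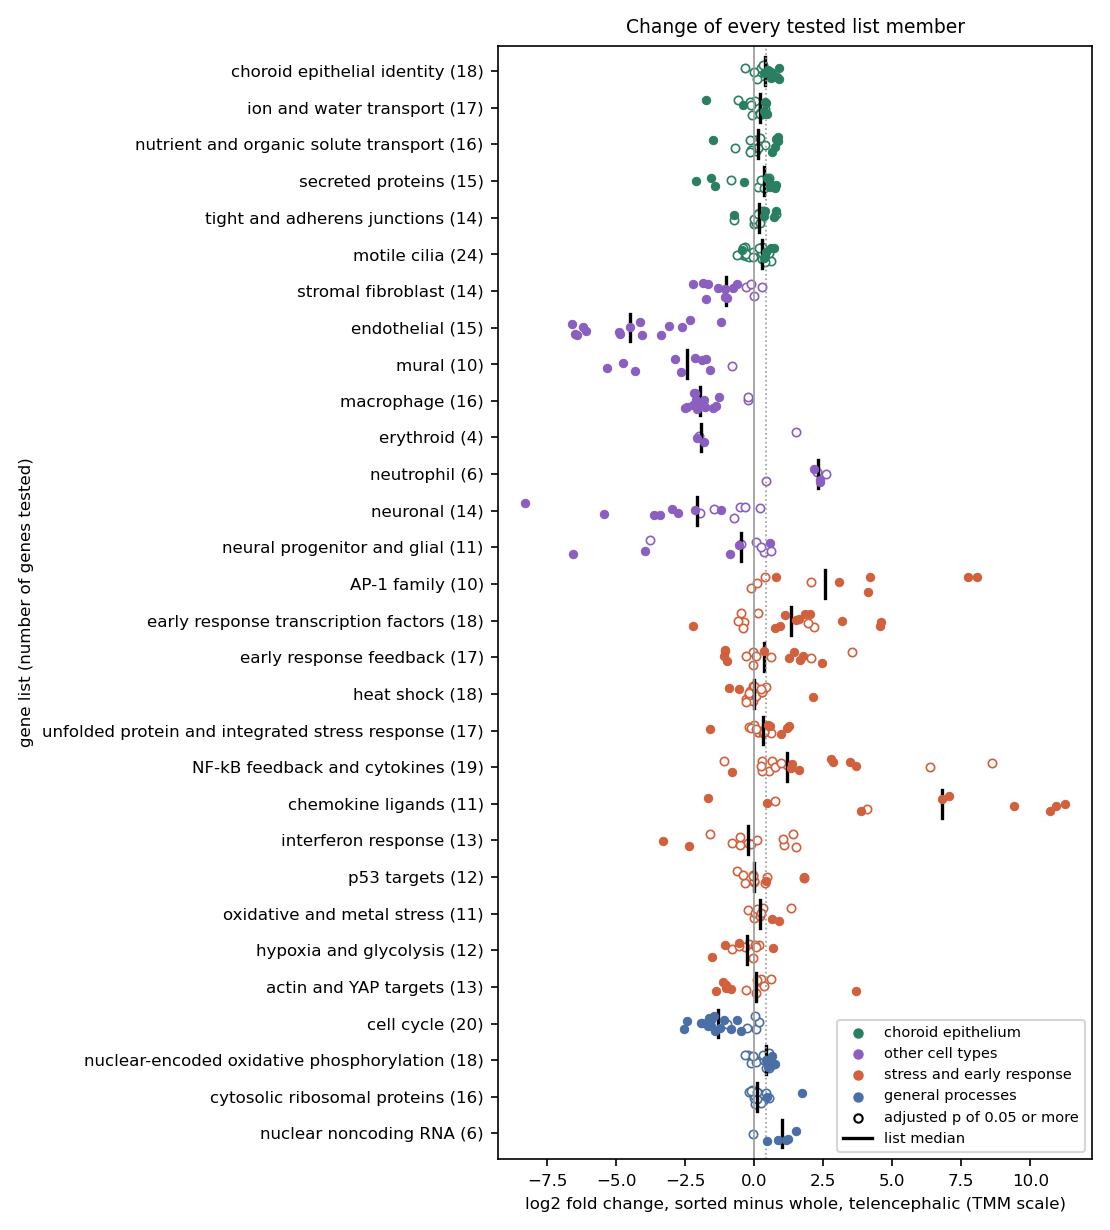
Log2 fold change of sorted minus whole telencephalic choroid plexus (horizontal axis) for every tested member of 30 gene lists (rows, with the number tested), filled where the adjusted p was below 0.05, with a black bar at the list median. The solid line is no change with TMM scaling and the dotted line no change relative to 18 epithelial identity genes; the endothelial median lies at -4.49, the chemokine median at 6.79 and the epithelial medians between 0.12 and 0.39.

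Transcripts that mark the choroid epithelium were moderately more abundant in sorted cells. Of 18 identity genes 9 were higher, 0 lower and 9 not called, with a median of 0.39, or 1.31-fold. The list summed to 199100 and 184200 CPM in whole tissue and 296700 and 273000 in sorted cells. Most of each sum was Ttr, with 187000, 172100, 281800 and 257000 CPM in the same order. The sums are therefore no independent check of the sort. Higher members numbered 7, 6, 7 and 7 in turn, and with library totals 3 were higher and 1 lower.

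Ttr, the thyroid hormone carrier of cerebrospinal fluid, had 187000 and 172100 CPM in whole tissue and 281800 and 257000 in sorted cells (0.59 ± 0.13, adjusted p = 0.00586). Both sorted libraries lay above both whole libraries, but with library totals the difference was 0.27 (adjusted p = 0.117). Enpp2, which encodes autotaxin, the enzyme that makes lysophosphatidic acid, had 1660 and 1699 CPM in whole tissue and 2766 and 3438 in sorted cells (0.89 ± 0.12, adjusted p = 0.000316). Kl, which encodes the hormone co-receptor klotho, had 106 and 87.9 CPM in whole tissue and 172 and 187 in sorted cells (0.89 ± 0.12, adjusted p = 0.000228). Kcnj13, a potassium channel gene, had 262 and 304 CPM in whole tissue and 498 and 515 in sorted cells (0.84 ± 0.15, adjusted p = 0.00193). In each of these genes the gain was below 2-fold. Cab39l, Tmem72 and Calml4 rose by 0.64 ± 0.11, 0.60 ± 0.11 and 0.70 ± 0.14. These 3 were not called with library totals (adjusted p = 0.0815, 0.124 and 0.065), and Calml4 was not called without whole replicate 2 (0.0587). The cation channel gene Trpm3 was not called, with 2183 and 2782 CPM in whole tissue and 2598 and 2830 in sorted cells.

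The transport, junction and cilia genes of the epithelium moved little. Of 17 ion and water transport genes 5 were higher and 2 lower (median 0.21), and of 16 nutrient and organic solute transport genes 5 were higher and 1 lower (median 0.12). Of 14 junction genes 4 were higher and 1 lower (median 0.18), and of 24 motile cilia genes 5 were higher and 1 lower (median 0.30). With library totals these medians turned negative, at -0.11, -0.20, -0.14 and -0.02. Relative to the all-gene median they stayed at 0.19, 0.11, 0.17 and 0.28, as with TMM factors, but the calls turned round. Ion transport then had 0 higher and 4 lower, nutrient transport 1 and 5, junctions 0 and 1, and cilia 0 and 8. Members called higher were 1, 0, 1 and 1 in turn for ion transport, 3, 4, 4 and 5 for nutrient transport, 1, 0, 0 and 2 for junctions and 2, 0, 2 and 1 for cilia. No ion transport gene was called lower when any 1 of the 4 libraries was left out.

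Slc12a2, the sodium, potassium and chloride cotransporter gene, had 1052 and 918 CPM in whole tissue and 675 and 794 in sorted cells (-0.42 ± 0.13, adjusted p = 0.039), and the call was lost without whole replicate 1 (0.273), whole replicate 2 (0.0704), sorted replicate 1 (0.261) or sorted replicate 2 (0.0537). The glucose transporter gene Slc2a12 had 182 and 161 CPM in whole tissue and 313 and 305 in sorted cells (0.85 ± 0.11, adjusted p = 0.000158). Sorted libraries were the lower pair for Slc12a2 and the higher pair for Slc2a12. The peptide transporter gene Slc15a2 rose by 0.78 ± 0.15, a call lost with library totals (adjusted p = 0.0602). Foxj1, the master regulator of motile cilia, had 228 and 173 CPM in whole tissue and 330.2 and 326 in sorted cells (0.71 ± 0.14, adjusted p = 0.00409), and was not called without whole replicate 2 (0.0634) or with library totals (0.0593). Tjp1, which encodes the tight junction scaffold ZO-1, fell from 298 and 309 CPM to 175 and 193 (-0.72 ± 0.12, adjusted p = 0.00126). The claudin genes Cldn1 (0.00 ± 0.11) and Cldn2 (0.08 ± 0.12), which form tight junction strands, were not called.

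Secreted protein genes split, with 5 of 15 higher, 4 lower and a median of 0.34. With library totals 2 were higher and 5 lower, with a median of 0.02. Clu, which encodes the extracellular chaperone clusterin, had 1170 and 1076 CPM in whole tissue and 1953 and 1937 in sorted cells (0.79 ± 0.11, adjusted p = 0.00039). Cp, the gene of the copper oxidase ceruloplasmin, had 95.3 and 103 CPM in whole tissue and 28.2 and 17.7 in sorted cells (-2.10 ± 0.31, adjusted p = 0.000441). Trf, which encodes transferrin, had 83.9 and 88.9 CPM in whole tissue and 35.8 and 28.6 in sorted cells (-1.42 ± 0.15, adjusted p = 3.45e-05). Sod3, the extracellular superoxide dismutase gene, had 19.1 and 20.02 CPM in whole tissue and 6.20 and 6.95 in sorted cells (-1.58 ± 0.15, adjusted p = 1.6e-05). Clu was higher, and Cp, Trf and Sod3 lower, in both sorted libraries than in either whole library. Which cells carried Cp, Trf and Sod3 in whole tissue was not tested. The count of higher members was 2, 3, 3 and 3 in turn.

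Vascular transcripts were strongly reduced in sorted cells. All 15 endothelial genes tested were lower, with a median of -4.49, and 15 were called without any 1 of the 4 libraries. The list summed to 837 and 849.5 CPM in whole tissue and 135 and 140.0 in sorted cells. In bulk RNA fewer cells of a type and less RNA per cell cannot be told apart. Pecam1, an adhesion molecule of endothelial junctions, had 62.6 and 61.4 CPM in whole tissue and 0.454 and 1.12 in sorted cells (-6.42 ± 0.26, adjusted p = 1.05e-08), which is 85.7-fold less. Esm1, a secreted proteoglycan of growing vessels, had 69.9 and 62.8 CPM in whole tissue and 0.378 and 0.310 in sorted cells (-7.54 ± 0.27, adjusted p = 8.93e-09). Cdh5, the cadherin of endothelial junctions, had 149 and 165 CPM in whole tissue and 9.91 and 8.62 in sorted cells (-4.07 ± 0.15, adjusted p = 8.93e-09). These libraries were far apart by preparation. Within it they were close for Esm1 and Cdh5, whereas the low sorted levels of Pecam1 differed more. Kdr, the VEGF receptor gene, fell less, from 223 and 228 CPM to 91.4 and 104 (-1.21 ± 0.11, adjusted p = 1.43e-05). The 12 largest decreases under the naming rule also held Sparcl1 (-6.74 ± 0.27), Col15a1 (-6.63 ± 0.34), Igfbp3 (-6.63 ± 0.31), Robo4 (-6.61 ± 0.31), Fabp7 (-6.57 ± 0.63), Flt1 (-6.48 ± 0.35) and Sox18 (-6.45 ± 0.30).

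Pericyte and smooth muscle genes followed, with 9 of 10 mural genes lower and a median of -2.42. Rgs5, a regulator of G protein signalling in pericytes, had 91.4 and 100.1 CPM in whole tissue and 2.12 and 2.73 in sorted cells (-5.33 ± 0.27, adjusted p = 6.23e-08). Of 16 macrophage genes 14 were lower (median -1.96), and their sum was 204 and 226 CPM in whole tissue and 47.1 and 76.3 in sorted cells. C1qb, a complement subunit made by macrophages, had 15.7 and 17.2 CPM in whole tissue and 3.10 and 2.85 in sorted cells (-2.45 ± 0.19, adjusted p = 1.96e-06). Mrc1, the mannose receptor gene of perivascular macrophages, had 49.05 and 61.2 CPM in whole tissue and 5.71 and 21.1 in sorted cells (-2.08 ± 0.42, adjusted p = 0.00386). Macrophage transcripts were reduced but not absent, and sorted replicate 2 kept more of Mrc1 than sorted replicate 1. No macrophage member was at 0 counts in both sorted libraries. Of 4 erythroid genes 2 were lower and 0 higher (median -1.91), and lower members numbered 1, 1, 1 and 2 in turn.

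Fibroblast genes fell less evenly, with 10 of 14 lower, 0 higher and a median of -1.03. The collagen gene Col1a1 had 56.2 and 77.9 CPM in whole tissue and 19.3 and 22.1 in sorted cells (-1.69 ± 0.24, adjusted p = 0.000412), and Col3a1 fell by 1.74 ± 0.20. Pdgfra, a receptor used as a fibroblast marker, was not called, with 389 and 411 CPM in whole tissue and 379 and 408 in sorted cells. The groups overlapped for Pdgfra and not for Col1a1. Among the 6 largest decreases in CPM were the basement membrane genes Col4a1, from 395 and 406 CPM to 68.3 and 69.3 (-2.54 ± 0.14, adjusted p = 1.66e-07), and Nid1, from 343 and 366 CPM to 56.7 and 46.3 (-2.78 ± 0.17, adjusted p = 2.93e-07). The largest of the 6 were in other genes, which belong to no list used here and are not printed.

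Neural transcripts were lower in part. Of 14 neuronal genes 8 were lower and 0 higher (median -2.06), and of 11 progenitor and glial genes 4 were lower and 1 higher (median -0.47). Dcx, which encodes a microtubule protein of young neurons, had 24.03 and 20.6 CPM in whole tissue and 5.29 and 4.65 in sorted cells (-2.16 ± 0.19, adjusted p = 7.28e-06). Nes, an intermediate filament gene of progenitors, had 26.9 and 23.9 CPM in whole tissue and 2.00 and 1.12 in sorted cells (-3.96 ± 0.24, adjusted p = 3.11e-07). Fabp7, a fatty acid binding protein gene of radial glia, had 19.2 and 8.49 CPM in whole tissue and 0.113 and 0.186 in sorted cells (-6.57 ± 0.63, adjusted p = 1.47e-05). Both whole libraries lay above both sorted libraries for these 3 genes, and the whole libraries differed most for Fabp7. Members called lower were 6, 5, 6 and 8 in turn for the neuronal list and 2, 3, 2 and 3 for the progenitor and glial list.

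**Figure D2:**
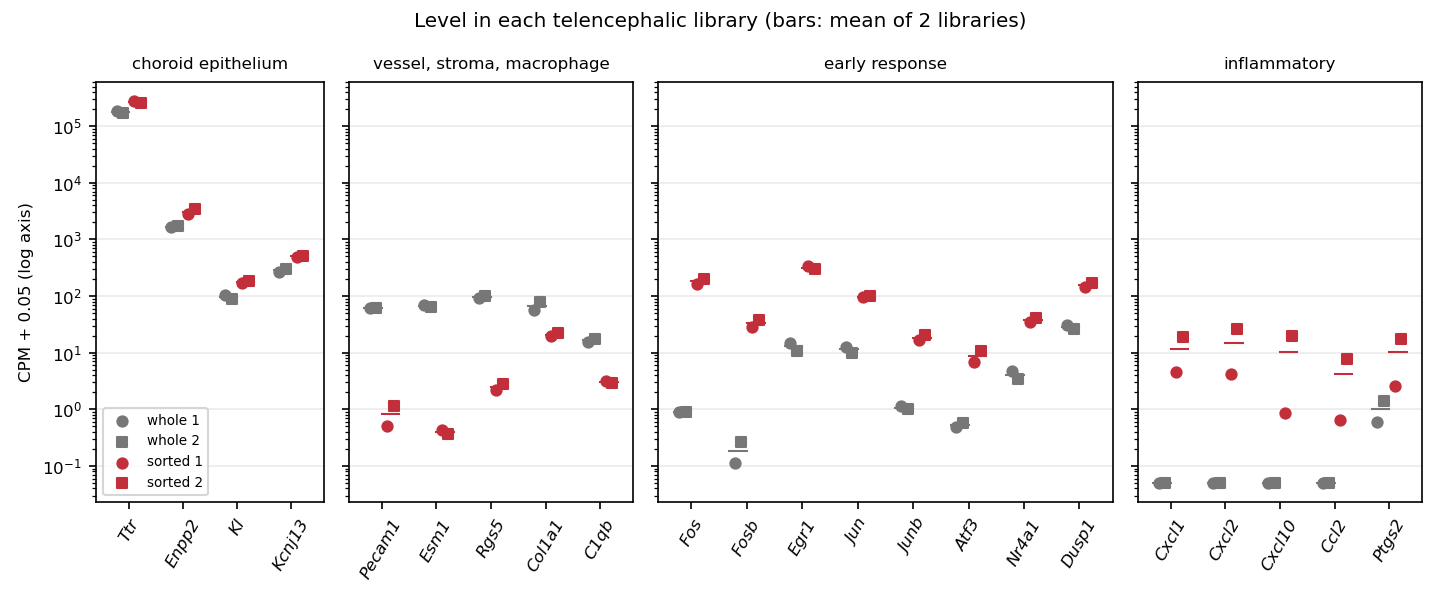
CPM plus 0.05 on a log axis for each telencephalic library (grey, whole; red, sorted; circle, replicate 1; square, replicate 2) with a bar at the group mean, for epithelial, other cell, early response and inflammatory genes. Fos rose from 0.856 and 0.839 CPM to 166 and 201 in the sorted libraries, which lie close together, whereas Cxcl10 had 0.794 CPM in sorted replicate 1 and 19.7 in sorted replicate 2.

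The AP-1 family, which encodes the leucine zipper factors of the immediate early response, held increases far above that of any epithelial gene listed. Of 10 members 6 were higher and 0 lower, with a median of 2.56. Fos had 0.856 and 0.839 CPM in whole tissue and 166 and 201 in sorted cells (7.75 ± 0.26, adjusted p = 8.93e-09). Fosb had 3 counts over both whole libraries, and its ratio of sorted to whole was 277 (95% counting interval 94.6 to 1350, which covers counting error only). For both genes the sorted libraries were far above the whole libraries and close to each other. Jun, whose protein pairs with Fos, had 12.7 and 9.96 CPM in whole tissue and 94.7 and 99.8 in sorted cells (3.08 ± 0.14, adjusted p = 2.94e-08). Junb had 1.10 and 0.943 CPM in whole tissue and 16.4 and 20.3 in sorted cells (4.13 ± 0.27, adjusted p = 5.71e-07). Atf3, a stress-induced member, had 0.428 and 0.524 CPM in whole tissue and 6.73 and 10.8 in sorted cells (4.20 ± 0.42, adjusted p = 2e-05). All 3 were several times higher in each sorted library than in whole tissue. The family did not move as one: Jund rose by 0.80 ± 0.18 and was not called without whole replicate 2 (0.0921) or sorted replicate 1 (0.081), and Fosl2 was not called (-0.10 ± 0.31).

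Of 18 other early response transcription factors 10 were higher and 1 lower (median 1.33). Egr1, a zinc finger factor induced by growth factors and stress, had 14.98 and 10.8 CPM in whole tissue and 336 and 299 in sorted cells (4.60 ± 0.18, adjusted p = 1.05e-08). Nr4a1, an orphan nuclear receptor gene, had 4.77 and 3.35 CPM in whole tissue and 34.6 and 40.9 in sorted cells (3.17 ± 0.26, adjusted p = 3.65e-06). In both genes each sorted library lay well above each whole library. Btg2 (1.63 ± 0.18), Nr4a2 (1.53 ± 0.19), Ier2 (1.85 ± 0.29) and Csrnp1 (2.03 ± 0.35) rose less. Klf6, a zinc finger factor often grouped with them, was not called, with 38.1 and 39.6 CPM in whole tissue and 27.04 and 32.8 in sorted cells. It was called lower with library totals (-0.70, adjusted p = 0.00514), with the 4 telencephalic libraries fitted alone (0.0334) and without hindbrain sorted replicate 1 (0.047). Srf, whose protein drives many early genes, was not called (0.12 ± 0.15). Members called higher were 8, 6, 10 and 9 in turn, and 9 were higher and 4 lower with library totals.

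Feedback genes of the early response went both ways, with 6 of 17 higher, 4 lower and a median of 0.36. Dusp1, a phosphatase that switches off MAP kinases, had 31.2 and 26.2 CPM in whole tissue and 146 and 167 in sorted cells (2.44 ± 0.16, adjusted p = 5.71e-07). Zfp36, which encodes a protein that destabilises cytokine messages, had 22.6 and 16.04 CPM in whole tissue and 53.3 and 71.5 in sorted cells (1.67 ± 0.20, adjusted p = 7.59e-05). The kinase gene Sgk1 had 98.4 and 88.2 CPM in whole tissue and 262 and 248 in sorted cells (1.45 ± 0.11, adjusted p = 2.67e-06). These were higher in both sorted libraries. Errfi1, a feedback inhibitor of the EGF receptor, fell from 65.7 and 70.3 CPM to 30.9 and 33.9 (-1.07 ± 0.14, adjusted p = 0.000142), and Rhob and Spry4 fell by 1.08 ± 0.18 and 1.07 ± 0.20. In turn 4, 3, 5 and 4 members were called higher, and with library totals 5 were higher and 6 lower (median 0.04). Cyr61, a secreted YAP and SRF target, had 15.5 and 11.01 CPM in whole tissue and 190.5 and 152 in sorted cells (3.67 ± 0.23, adjusted p = 3.82e-07). It was the 1 higher member of 13 actin and YAP genes, of which 5 were lower, among them the tropomyosin genes Tpm1 (-1.01 ± 0.11) and Tpm4 (-1.39 ± 0.13). That list had 1 higher and 6 lower members with library totals, and its median went from 0.05 to -0.27.

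Chemokine genes held the 3 largest increases under the naming rule, but the sorted libraries differed from each other. Of 11 ligands 8 were higher and 1 lower, with a fitted median of 6.79, or 4.85 with members at 0 counts set to their bound. Cxcl1, a neutrophil attractant, had 0 and 0 CPM in whole tissue and 4.50 and 18.98 in sorted cells, at least 86.2-fold higher with a floor of 3 counts over the group (adjusted p = 0.00205). Cxcl2, a related ligand, had 0 and 0 CPM in whole tissue and 4.12 and 25.7 in sorted cells, at least 106-fold higher (adjusted p = 0.00256). Neither was detected in whole tissue, and both kept their call without any 1 of the 4 libraries. Cxcl10, a T cell attractant, had 0 and 0 CPM in whole tissue and 0.794 and 19.7 in sorted cells, at least 68.7-fold higher (adjusted p = 0.0377). Ccl2, a monocyte attractant, had 0 and 0 CPM in whole tissue and 0.605 and 7.81 in sorted cells, at least 28.8-fold higher (adjusted p = 0.0298). Sorted replicate 2 was the higher library in all 4 genes. The same held for hindbrain sorted replicate 2, with 4.55 and 51.9 CPM for Cxcl10 in replicates 1 and 2 there.

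Ptgs2, the inducible cyclooxygenase gene, had 0.550 and 1.36 CPM in whole tissue and 2.57 and 17.5 in sorted cells (3.47 ± 0.97, adjusted p = 0.0229). Here too sorted replicate 2 stood above sorted replicate 1. Calls were lost for Cxcl10 without whole replicate 1 (0.21), whole replicate 2 (0.143) or sorted replicate 2 (0.298), for Ccl2 without whole replicate 1 (0.184), whole replicate 2 (0.115) or sorted replicate 2 (0.185), and for Ptgs2 without whole replicate 1 (0.209), whole replicate 2 (0.0826) or sorted replicate 2 (0.254). Ccl3 (adjusted p = 0.0128) was not called without whole replicate 1 (0.0793), whole replicate 2 (0.0933) or sorted replicate 2 (0.0875), Ccl4 (0.0414) not without whole replicate 1 (0.229), whole replicate 2 (0.178) or sorted replicate 2 (0.376), and Ccl7 (0.0456) not without whole replicate 1 (0.237), whole replicate 2 (0.187) or sorted replicate 2 (0.399). Members called higher were 2, 2, 7 and 3 in turn. Macrophage markers summed to 47.1 CPM in sorted replicate 1 and 76.3 in sorted replicate 2, below whole tissue in both. Mrc1 was higher in sorted replicate 2, at 5.71 and 21.1 CPM, whereas C1qb had 3.10 and 2.85. In hindbrain sorted replicates 1 and 2 the macrophage sum was 286.5 and 237.3 CPM, and Cxcl2 had 29.4 and 79.5. The part of macrophages in the chemokine values was not tested. Cxcl12, a ligand of stroma and vessels, was the member that fell, from 30.9 and 33.9 CPM to 11.6 and 8.44 (-1.68 ± 0.18, adjusted p = 3.58e-05).

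The promoters of 3 chemokine genes that were at 0 counts in whole tissue, and of Dusp1, are shown because NF-kB, AP-1 and CREB are known to bind short motifs in such windows. These 4 were picked for holding a match. The sequences are the 250 bases before the start site, from RefSeq on GRCm38.p6, 5′ to 3′ on the gene's strand. The counts were made on mm9, and these coordinates were not joined to them. Both strands were searched for the kappa-B motif, by its usual consensus of 10 bases, the cyclic AMP response element TGACGTCA and the AP-1 site TGAGTCA, and capitals mark every match. The window of Cxcl1 is chr5:90890995-90891244 on the plus strand and that of Cxcl2 is chr5:90903649-90903898 on the plus strand. The window of Cxcl10 is chr5:92348890-92349139 on the minus strand and that of Dusp1 is chr17:26508473-26508722 on the minus strand.
Cxcl1: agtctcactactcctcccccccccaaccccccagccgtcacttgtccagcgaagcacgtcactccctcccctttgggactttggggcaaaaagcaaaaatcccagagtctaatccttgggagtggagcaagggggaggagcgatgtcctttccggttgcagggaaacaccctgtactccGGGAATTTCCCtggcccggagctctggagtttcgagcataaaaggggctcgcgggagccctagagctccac
Cxcl2: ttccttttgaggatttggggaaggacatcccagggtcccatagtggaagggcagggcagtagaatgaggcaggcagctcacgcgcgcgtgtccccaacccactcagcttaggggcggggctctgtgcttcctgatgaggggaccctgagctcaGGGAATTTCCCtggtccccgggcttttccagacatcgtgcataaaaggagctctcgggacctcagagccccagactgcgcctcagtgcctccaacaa
Cxcl10: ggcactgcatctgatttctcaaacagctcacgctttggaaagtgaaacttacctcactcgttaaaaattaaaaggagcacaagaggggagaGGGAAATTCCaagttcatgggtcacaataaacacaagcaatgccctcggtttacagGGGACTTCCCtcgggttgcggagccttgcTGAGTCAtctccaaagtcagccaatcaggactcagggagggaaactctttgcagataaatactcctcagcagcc
Dusp1: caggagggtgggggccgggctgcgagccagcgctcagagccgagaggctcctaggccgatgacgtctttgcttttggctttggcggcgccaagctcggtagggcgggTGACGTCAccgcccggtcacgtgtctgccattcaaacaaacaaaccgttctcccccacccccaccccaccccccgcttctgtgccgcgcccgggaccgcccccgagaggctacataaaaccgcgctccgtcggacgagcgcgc

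In Cxcl1 the capitals hold 2 overlapping kappa-B matches, 1 on each strand, at 71 to 62 and 70 to 61 bases before the start. In Cxcl2 they lie at 97 to 88 and 96 to 87. Cxcl10 has kappa-B matches at 159 to 150 and 103 to 94 bases before the start and an AP-1 match at 74 to 68. Dusp1 has a cyclic AMP response element at 143 to 136. A window was found for 7 of the 12 chemokine genes listed, and 3 of the 7 held a kappa-B match, against 3.75% of 27025 windows of all genes. The motif was not particular to chemokines. It was in 3 of 10 windows of the AP-1 family, among them Fos and Fosb. It was also in 6 of 16 windows of NF-kB feedback and cytokine genes, among them Nfkbia. The AP-1 site was in 4.43% of all windows and the cyclic AMP response element in 1.62%. The cyclic AMP response element was in 1 of 15 windows of feedback genes, that of Dusp1, and in 0 of 10 windows of the AP-1 family. The CArG box of SRF, searched by name as well, had no match in the windows printed. No match to any of these motifs was found in the windows of Jun, Junb, Atf3 and Nr4a1. The cyclic AMP response element and the AP-1 site were searched by exact letters only, so variant sites were not counted. A match describes the letters only.

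Among NF-kB feedback and cytokine genes 7 of 19 were higher and 1 lower, with a median of 1.19. Nfkbiz, a nuclear regulator of NF-kB, had 5.01 and 7.44 CPM in whole tissue and 43.9 and 40.3 in sorted cells (2.79 ± 0.19, adjusted p = 8.36e-07). Nfkbia, the classical inhibitor and early target, had 10.3 and 8.70 CPM in whole tissue and 25.4 and 24.4 in sorted cells (1.38 ± 0.19, adjusted p = 0.000261). Both genes were close in the sorted libraries and above whole tissue. Tnfaip3, another inhibitor, had 5.69 and 4.19 CPM in whole tissue and 9.26 and 21.9 in sorted cells (1.61 ± 0.38, adjusted p = 0.0102) and was not called without whole replicate 1 (0.0582), whole replicate 2 (0.0926) or sorted replicate 2 (0.0972). Socs3, an inhibitor of cytokine signalling, rose by 1.34 ± 0.27 and was not called without whole replicate 2 (0.0544). The subunit gene Nfkb1 fell by 0.81 ± 0.16 and was not called without whole replicate 1 (0.0566) or sorted replicate 1 (0.0518). In turn the higher members numbered 3, 2, 9 and 3.

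Other stress programmes moved little as lists. Of 18 heat shock genes 1 was higher and 2 lower (median -0.02), and with library totals 1 was higher and 7 lower (median -0.34). The inducible chaperone gene Hspa1b was the higher one, with 0.245 and 0.419 CPM in whole tissue and 1.10 and 1.74 in sorted cells (2.13 ± 0.61, adjusted p = 0.0265), and was not called without whole replicate 1 (0.234), whole replicate 2 (0.0758) or sorted replicate 2 (0.11). The abundant chaperone gene Hspa8 was not called (0.11 ± 0.11). Of 12 p53 target genes 2 were higher and 0 lower (median 0.00), a count of 0, 0, 0 and 1 in turn. Of 11 oxidative and metal stress genes 2 were higher and 0 lower (median 0.22), 1, 1, 1 and 2 in turn. Of 12 hypoxia and glycolysis genes 1 was higher and 3 lower (median -0.26), 1, 2, 2 and 2 lower in turn. Of 13 interferon response genes 0 were higher and 2 lower (median -0.23), namely Ifi44 (-3.30 ± 0.47) and Oasl2 (-2.36 ± 0.31). With library totals the p53 list had 0 higher and 1 lower (median -0.32), the oxidative stress list 1 and 1 (-0.10), the hypoxia list 0 and 5 (-0.57) and the interferon list 0 and 4 (-0.54).

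Of 17 genes of the unfolded protein and integrated stress response 5 were higher and 1 lower, with a median of 0.32. With library totals 3 were higher and 3 lower, with a median of 0.00. Atf4, the transcription factor of the integrated stress response, had 43.2 and 45.8 CPM in whole tissue and 101 and 99.7 in sorted cells (1.18 ± 0.14, adjusted p = 7.52e-05). Each sorted library held about the same level, above both whole libraries. Dnajb9, a chaperone gene of the endoplasmic reticulum, rose by 0.97 ± 0.15, and Ppp1r15a, a phosphatase subunit gene that ends the response, by 1.27 ± 0.25, not called without whole replicate 2 (0.0519). Asns, an asparagine synthetase gene and Atf4 target, fell by 1.59 ± 0.26. The chaperone gene Hspa5 was not called (-0.01 ± 0.14). Members called higher were 4, 2, 3 and 3 in turn.

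Proliferation genes were lower in sorted cells, 15 of 20 with 0 higher and a median of -1.33. Mki67, the proliferation antigen gene, had 70.8 and 88.99 CPM in whole tissue and 11.5 and 18.54 in sorted cells (-2.42 ± 0.21, adjusted p = 5.64e-06). Top2a, a topoisomerase gene of dividing cells, had 43.1 and 55.1 CPM in whole tissue and 9.11 and 17.9 in sorted cells (-1.88 ± 0.28, adjusted p = 0.00046). Both were lower in each sorted library, whereas the kinase gene Cdk1 was not called, with 19.7 and 21.7 CPM in whole tissue and 21.5 and 21.8 in sorted cells. Members called lower were 11, 7, 13 and 10 in turn. Endothelial, mural, fibroblast and macrophage markers fell beside these genes, and the part of those cells in the decrease was not tested.

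Nuclear and ribosomal RNA took a larger share of sorted libraries. Rn45s, the ribosomal RNA precursor, had 41250 and 40770 CPM in whole tissue and 166700 and 134000 in sorted cells (1.87 ± 0.23, adjusted p = 9.84e-05). Malat1, a nuclear noncoding RNA, had 3924 and 4838 CPM in whole tissue and 11570 and 13440 in sorted cells (1.51 ± 0.13, adjusted p = 7.28e-06). Of 6 nuclear noncoding RNAs 5 were higher and 0 lower (median 0.99). Both Rn45s and Malat1 were higher in each sorted library. Reads counted to Lars2, the mitochondrial leucyl-tRNA synthetase gene, rose from 2911 and 2796 CPM to 10070 and 7519 (1.62 ± 0.14, adjusted p = 6.63e-06). Whether those reads came from its message was not tested. Of 16 cytosolic ribosomal protein genes 2 were higher (median 0.10), 1, 1, 1 and 1 in turn. With library totals 1 was higher and 3 were lower (median -0.22). Of 18 nuclear genes of oxidative phosphorylation 7 were higher and 0 lower (median 0.43), 3, 1, 1 and 4 in turn. With library totals 1 was higher and 3 were lower.

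Several of the largest increases belonged to no list. Ly6e, which encodes a small membrane protein with a GPI anchor, had 154 and 159.5 CPM in whole tissue and 2603 and 2980 in sorted cells (4.15 ± 0.16, adjusted p = 1.05e-08). Lynx1, a relative that binds acetylcholine receptors, had 2.51 and 2.20 CPM in whole tissue and 98.7 and 103 in sorted cells (5.40 ± 0.21, adjusted p = 1.05e-08). Each was higher in both sorted libraries by a wide margin. In RefSeq's gene order both lie on chromosome 15 in a cluster of related genes that also holds Ly6a and, named after their values were seen, Ly6c1 and Gpihbp1. Ly6a rose from 7.46 and 7.13 CPM to 39.2 and 57.3 (2.72 ± 0.20, adjusted p = 1.89e-06). Ly6c1 fell from 5.69 and 4.72 CPM to 1.74 and 1.61 (-1.63 ± 0.33, adjusted p = 0.00432) and was not called without whole replicate 1 (0.0606). Gpihbp1, which encodes a lipase anchor of capillaries, had 10.5 and 9.12 CPM in whole tissue and 0.0378 and 0 in sorted cells, a ratio of sorted to whole of 0.00236 (95% counting interval 5.95e-05 to 0.0133). Ly6h, which lies between these last 2 and was also looked up later, was not called (0.34 ± 0.53, adjusted p = 0.691). Of these 6 genes 3 rose, 2 fell and 1 was not called.

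Gje1, a gene of the connexin family, had 1.04 and 0.315 CPM in whole tissue and 31.2 and 40.4 in sorted cells (5.55 ± 0.31, adjusted p = 1.66e-07). Muc15, a membrane mucin gene, had 2.45 and 4.19 CPM in whole tissue and 59.6 and 49.7 in sorted cells (4.10 ± 0.27, adjusted p = 5.53e-07). Both were low in whole tissue and high in each sorted library. Alb, the albumin gene of liver, had 3 counts over both whole libraries and a ratio of sorted to whole of 316 (95% counting interval 108 to 1530). Its call (adjusted p = 0.00309) was lost without whole replicate 1 (0.0591). Ahsg and Fga, other plasma protein genes of liver named after their values were seen, had 0 counts in whole tissue. Ahsg was at least 28.8-fold higher (adjusted p = 0.0132) and Fga at least 29.4-fold (0.02). Ahsg was not called without whole replicate 1 (0.117), whole replicate 2 (0.0693) or sorted replicate 1 (0.0517), and Fga not without whole replicate 1 (0.149), whole replicate 2 (0.094) or sorted replicate 1 (0.0801). In the hindbrain Alb had 0.363 and 20.2 CPM in whole tissue and 20.4 and 35.96 in sorted cells (1.48 ± 0.81, adjusted p = 0.216), and whole replicate 2 came close to the sorted libraries there.

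**Figure D3:**
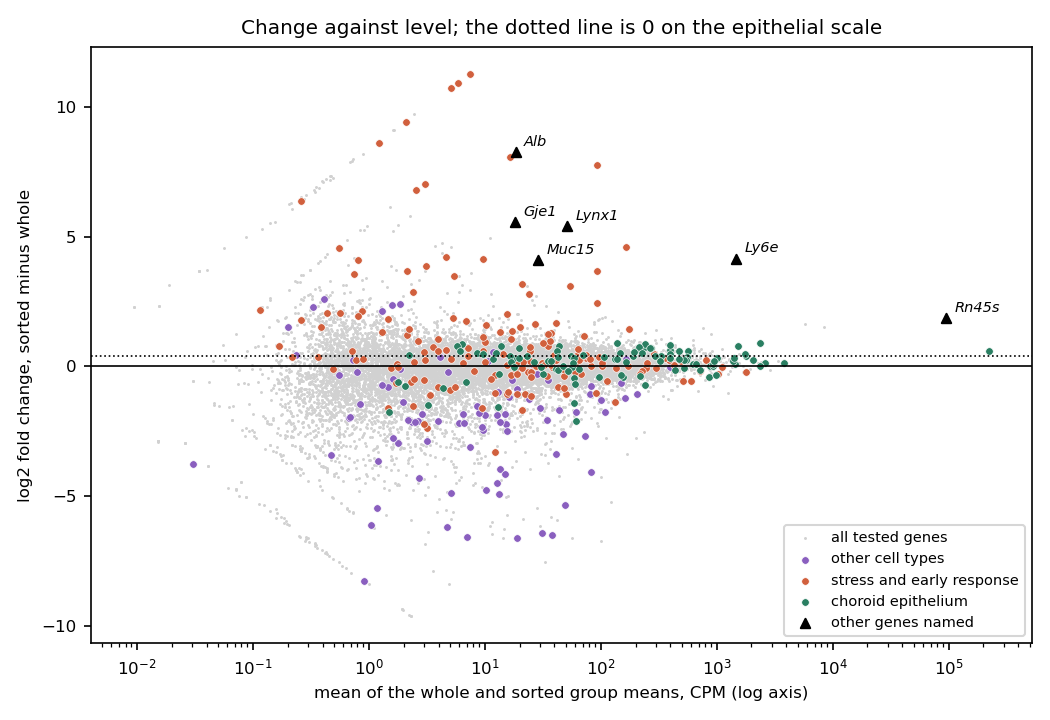
Log2 fold change of sorted minus whole (vertical axis) against the mean of both group means in CPM (log axis) for all 15698 tested genes in grey, with list members in colour and 6 other named genes as black triangles. The solid line is 0 with TMM scaling and the dotted line 0 relative to the 18 epithelial identity genes; the highest epithelial member lies at 0.89, whereas stress genes reach 11.26.

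Libraries were also scaled to the geometric mean of the 18 identity genes. A gene higher on this epithelial scale rose by more than their average, not by more than each of them. The scale shifted the all-gene median by -0.41, to -0.39, and called 395 genes higher (2.52%) and 5404 lower (34.4%). All 395 were also higher with TMM factors, and 1156 genes were higher with TMM factors only. Of 104 epithelial genes 33 were higher and 9 lower with TMM factors, and 4 higher and 32 lower on the epithelial scale. Among these 4, 2 are reference genes of the scale. No epithelial gene was over 4-fold higher. Of 171 stress genes 49 were higher and 20 lower with TMM factors, and 37 higher and 49 lower on the epithelial scale. With TMM factors 23 stress genes were over 4-fold higher. The 18 reference genes define the scale, so their own values on it are a description. Genes higher on this scale numbered 159, 238, 230 and 237 in turn. With all 6 epithelial lists as the reference 904 genes were higher and 2576 lower.

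On the epithelial scale Fos was higher by 7.35 (adjusted p = 2.97e-09), Egr1 by 4.20 (3.94e-09), Dusp1 by 2.04 (1.74e-06) and Nfkbiz by 2.38 (3.43e-06). Ly6e was higher by 3.75 (adjusted p = 3.94e-09) and Malat1 by 1.10 (8.95e-05). Clu was higher by 0.39 (adjusted p = 0.0155), and Foxj1, at 0.31 (0.0959), was not called. The median was 2.17 for the AP-1 list, 0.93 for the other early factors and 0.80 for the NF-kB list. It was -0.43 for heat shock and -0.41 for p53 targets, near the all-gene median of -0.39.

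In the hindbrain 3472 genes were called between sorted and whole libraries (22.1%), 1607 higher (10.2%) and 1865 lower (11.9%). The median of the epithelial identity list was 0.35 there and 0.39 in the telencephalon, that of the AP-1 list 2.06 and 2.56, and that of the chemokine list 5.54 and 6.79. With members at 0 counts set to their bound, the telencephalic chemokine median was 4.85, below the fitted hindbrain median. Other lists had the larger median in the hindbrain: 1.67 and 1.33 for the other early factors, 0.94 and 0.36 for feedback genes. For the NF-kB list the medians were 2.06 and 1.19. Fos had 1.69 and 0.8497 CPM in whole tissue and 272 and 237 in sorted cells in the hindbrain (7.61 ± 0.23, adjusted p = 3e-09). A test of the difference between the preparation effects of the 2 regions called 211 genes (1.34%), 38 more positive and 173 more negative in the telencephalon. With the brain as a block, a fit chosen after seeing the data, 337 were called. Leaving out 1 library gave 58 without telencephalic whole replicate 2, 81 and 98 without telencephalic whole replicate 1 and sorted replicate 1, 124 and 133 without hindbrain whole replicates 1 and 2, and 473 without hindbrain sorted replicate 2.

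**Figure D4:**
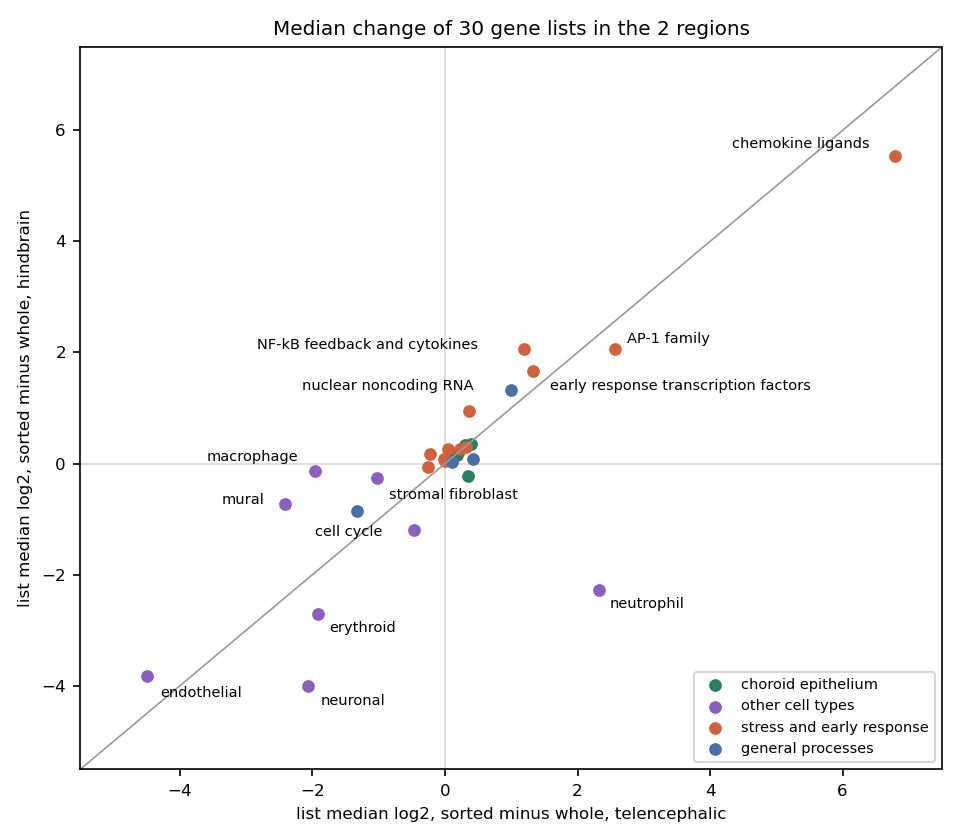
Median log2 fold change of sorted minus whole for each of 30 gene lists in the telencephalic (horizontal axis) and hindbrain (vertical axis) choroid plexus, coloured by class, with the line of equality. Mural genes lie at -2.42 and -0.73, macrophage genes at -1.96 and -0.14, and neutrophil genes at 2.32 and -2.27.

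Of the 211 genes 162 were lower in telencephalic sorted cells, which is a description, since the difference contains the telencephalic effect. Pdgfrb, the growth factor receptor gene of pericytes, fell in the telencephalon from 91.5 and 97.4 CPM to 30.5 and 25.7 (-1.74 ± 0.14, adjusted p = 3.38e-06). In the hindbrain it had 85.8 and 90.1 CPM in whole tissue and 113 and 91.9 in sorted cells (difference between regions -1.97 ± 0.19, adjusted p = 0.000815). Sorted libraries were thus the lower pair in the telencephalon and the higher pair, by little, in the hindbrain. Rgs5 differed between regions by -3.28 (adjusted p = 0.00101) and the channel gene Abcc9 by -2.25 (0.000815). C1qb differed by -1.97 (adjusted p = 0.00216). Macrophage genes summed to 286 and 237 CPM in hindbrain sorted cells, against 47.1 and 76.3 in telencephalic sorted cells.

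Some early genes also differed between regions. Klf6 had 41.9 and 48.7 CPM in whole tissue and 112 and 145 in sorted cells in the hindbrain (1.51 ± 0.15, adjusted p = 3.02e-05), a difference between regions of -1.89 ± 0.22, adjusted p = 0.00179. Zfp36 rose by 3.21 in the hindbrain, more than in the telencephalon (difference -1.54 ± 0.27, adjusted p = 0.0116). Fos (0.971), Jun (0.895) and Cxcl2 (0.987) had adjusted p of the difference that missed the threshold, which does not show that the regions responded alike. Lynx1 rose more in the telencephalon (difference 1.68 ± 0.28, adjusted p = 0.00925), and so did Ly6a (difference 2.69 ± 0.28, adjusted p = 0.00101), which had 11.4 and 11.1 CPM in whole tissue and 11.97 and 11.01 in sorted cells in the hindbrain. Of 6 neutrophil genes 3 were higher in the telencephalon and 0 in the hindbrain, where 6 were lower. Ngp, a granule protein gene, had 0.550 and 0.419 CPM in whole tissue and 3.40 and 0.868 in sorted cells in the telencephalon (2.15 ± 0.64, adjusted p = 0.0295), and the call was lost without whole replicate 1 (0.162), whole replicate 2 (0.149) or sorted replicate 1 (0.45). Sorted replicate 1 was the higher library. The neutrophil count was 0, 0, 0 and 4 in turn.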

How the data were processed

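RNA was sequenced from 8 libraries of mouse choroid plexus at E18.5, and the 4 telencephalic libraries are the subject here. Per the labels' protocols, RNA was isolated with a Qiagen micro kit, pre-amplified as cDNA with the NuGEN Ovation V2 system and made into paired-end TruSeq v2 libraries. Tools listed in the submitters' processing notes, with no role or order, are Bowtie2 2.0.5, TopHat2 2.0.4, CASAVA 1.8.2, DESeq and HTSeq, and the build is mm9. Not given in the sources used here were annotation, aligner settings and strand setting. Overlapping and antisense genes therefore cannot be told apart, and near-identical paralogs are uncertain. The deposited values are raw read counts per gene made by the authors, without molecular identifiers, so counting intervals (exact, 95%) and floors (3 counts) cover counting error only.

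Counts were analysed in edgeR 4.0.16 (R 4.3.3). Genes were filtered with filterByExpr (minimum count 10, total 15), scaled with TMM factors and fitted with 4 group means over 8 libraries, 2 per group, so that all groups share 1 estimate of the spread. The contrasts were sorted minus whole in the telencephalon, the same relative to 18 epithelial genes, and the difference of that effect between regions. Depth was 8849053 to 31613434 counts per library. The script was tested on simulated data. Alternatives were DESeq2 1.42.0, other scalings and filters, a test against a 1.5-fold change, the 4 telencephalic libraries fitted alone, the replicate number as a block and leaving out each library.

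Members and gene lists (30 lists, 425 of 440 genes tested) were chosen with earlier results of these data known, and lists are described by counts and medians with no test. Genes named were the 12 per direction with the largest fold change (at least 10 CPM, no overlap), the 6 per direction with the largest CPM difference, up to 6 called and 2 abundant members per list, every member of lists of up to 12, and 6 per direction by the difference between regions. A selection of these is printed. Replicate numbers did not pair sorted with whole libraries (correlation of deviations 0.00865 across genes), and regions, which share brains per the design text, had 0.296 in whole tissue and 0.153 in sorted cells.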

Additional observations from a re-analysis of the deposited data

Results flagged for a closer look

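A test of the difference between the telencephalic and hindbrain effects of preparation singled out 211 genes. The values below are the telencephalic minus the hindbrain log2 difference, for the genes named above that passed it. Vessel, mural and stromal genes were more negative in the telencephalon: Rgs5 -3.28, Sparcl1 -2.86, Igfbp3 -2.55, Robo4 -2.26, Abcc9 -2.25, Nid1 -1.99, Pdgfrb -1.97, Cdh5 -1.61, Col3a1 -1.47 and Col4a1 -0.99. The macrophage gene C1qb differed by -1.97. Of early response and actin genes, Klf6 differed by -1.89, Zfp36 by -1.54, Errfi1 by -1.42, Rhob by -1.10 and Tpm1 by -0.78. The secreted protein genes Trf and Sod3 differed by -1.20 and -1.19. More positive in the telencephalon were Ngp at 4.91, Ly6c1 at 4.70, Ly6a at 2.69 and Lynx1 at 1.68. Ngp was below 4 CPM in every telencephalic library, and its telencephalic call was lost without sorted replicate 1 (adjusted p = 0.45).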

How the results depend on the processing

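The 3517 calls between sorted and whole telencephalic libraries became 1034 in a test against a 1.5-fold change and ranged from 1519 to 4501 when 1 library was left out. The 5799 calls on the epithelial scale became 1872 in the test against a 1.5-fold change and 3480 with all 6 epithelial lists as the reference, and ranged from 3343 to 6758. The 211 differences between regions became 335 with DESeq2, 441 with no low-count filter, 92 in the test against a 1.5-fold change and 337 with the brain as a block, and ranged from 58 to 473. Fitted alone, the 4 telencephalic libraries gave 4803 calls and 6794 on the epithelial scale. With the replicate number as a block the counts were 3510, 5818 and 207, and Klf6 was then called lower (-0.39, adjusted p = 0.0459). The cause of these changes was not tested, except that a test against a larger change is stricter by construction and that fewer libraries entered the fits that left 1 out. Of 107 named genes 76 kept their call and direction under all 18 alternatives run for them. No named gene reversed its direction with a call on either side. Depth limits genes with few counts in whole replicate 2, the shallowest library at 8849053 counts.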
